A study of Mus musculus with 6 samples.

Results

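The collagen genes of the tailbud were examined, that is, every row of the expression table whose gene symbol has the form of a collagen chain (Col, a type number, a and a chain number). The rule found 44 genes among 35591 rows, of which 11 encode fibrillar chains, 9 basement membrane chains and 24 chains of other types. A read was detected for 43 of them, and 33 had enough reads to be tested (10 fibrillar, 6 basement membrane and 17 other). The remaining 11 were Col5a3 among fibrillar chains, Col4a3, Col4a4 and Col15a1 among basement membrane chains, and Col6a4, Col6a5, Col8a1, Col10a1, Col19a1, Col20a1 and Col28a1 among the others.

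RNA was sequenced from tailbud with presomitic mesoderm, the tissue from which the somites and later the vertebrae form, cut from FVB/NJ mouse embryos with 8 somites. Libraries came from 3 WT embryos (Smchd1 +/+) and 3 embryos homozygous for MommeD43, a point mutation of Smchd1 made by chemical mutagenesis and carried in every cell. SMCHD1 is a chromatin protein that silences clustered genes and genes of the inactive X chromosome. Replicate 1 of each genotype was a male, and both males had the same mother, while replicates 2 and 3 were females from 4 further litters. Every library represents its own embryo. The recovered reads of any pair of libraries differed by a mean chi-square per gene of at least 4.67, where sampling alone gives about 1, so that none was a repeat of another.

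Collagens are secreted proteins whose chains wind around each other as trimers. Fibrillar chains assemble into the banded fibrils that give tendon, skin and bone their strength, whereas type IV and type XVIII chains lie in the basement membrane, the sheet beneath epithelia and around vessels. The chains are hydroxylated and folded in the endoplasmic reticulum, fibrillar chains are trimmed by proteases on secretion, and the trimers are then cross-linked outside the cell. The cartilage and bone of the vertebral column, which are rich in type II and type I collagen, form long after the stage sampled here.

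The libraries held between 10957916 and 47298348 reads, and the markers of the labelled tissue were present in all of them. T, Tbx6, Msgn1 and the other 7 tailbud markers summed to between 536.6 and 762.7 RPKM (reads scaled by exon length and library size) in WT and between 553.1 and 661.7 RPKM in MommeD43. Of 7 markers of formed somites and sclerotome, Uncx and Nkx3-2 had no read in any library, while Meox1, Tcf15 and Pax9 were detected in every library, at means of 1.49, 0.562 and 0.378 RPKM. The source field of the labels gives a different material, neural stem cells, and the tissue field was followed. Of the markers of such cells, Sox2, Nes and Fabp7 were present in every library, at means of 13.8, 11.2 and 2.30 RPKM and highest in WT replicate 1, while Olig2 had no read in 5 of the 6 libraries. WT replicate 1 stood apart in its markers. It was the highest library for 8 of the 10 tailbud markers and the lowest for 8 of 8 endothelial markers (such as Pecam1 and Cdh5), which summed to between 25.7 and 44.7 RPKM in WT and between 36.1 and 47.2 RPKM in MommeD43. For 8 markers of primitive blood, the sums ranged from 8.92 RPKM in that library to 485.8 RPKM in WT and from 22.8 to 220.0 RPKM in MommeD43. That library was the lowest for 4 of these markers, and Gata1 was at 0 in it and in MommeD43 replicates 1 and 3. It also had the lowest sum of 7 surface ectoderm markers, which ranged from 270.0 to 381.1 RPKM in WT and from 349.9 to 393.2 RPKM in MommeD43. Krt8 and Krt18 made up most of that sum, at 126.0 and 118.8 RPKM in WT replicate 1. Of the 7 markers, 3 were lowest in WT replicate 1 and 3 in MommeD43 replicate 1. Values that moved most when WT replicate 1 was left out are also given without it. In bulk tissue, fewer cells of a type and less RNA per cell cannot be told apart.

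Basement membrane chains made up most of the collagen message of the tailbud. In RPKM averaged over the 6 libraries, Col4a1 reached 42.7, Col18a1 41.1 and Col4a2 21.2, and these 3 genes held 24.47%, 23.55% and 12.15% of the summed collagen RPKM. Col1a1 (9.52 RPKM) and Col4a5 (9.51 RPKM) came next, followed by Col4a6 (6.70), Col1a2 (5.61), Col9a1 (5.55), Col5a1 (5.24) and Col5a2 (5.23). Neighbours in this order mostly overlapped between libraries. Only 5 steps among the first 17 genes showed no overlap, from Col18a1 to Col4a2, Col4a2 to Col1a1, Col4a5 to Col4a6, Col13a1 to Col2a1 and Col23a1 to Col24a1. Col4a1 lay above Col18a1 in 4 of 6 libraries, so that the order of these leading genes was not resolved. At the other end, Col28a1 had 1 read in all libraries together, and Col19a1 had 0 reads, which allows up to 0.0398 RPKM in the shallowest library (3 reads). Such limits, and the intervals given below, cover counting error only.

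**Figure D1:**
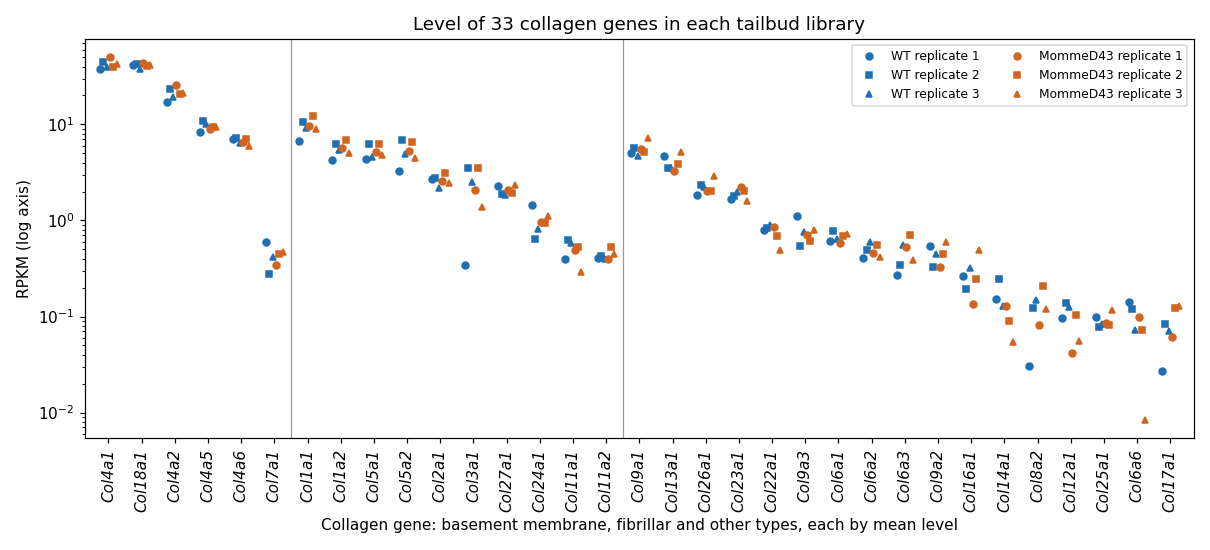
Level of the 33 tested collagen genes, with RPKM on a log axis and 1 point per library (blue, WT; orange, MommeD43; circle, square and triangle, replicates 1, 2 and 3). Vertical lines separate basement membrane, fibrillar and other chains; the colours overlap for every gene, and the WT circle of Col3a1 lies at 0.342 RPKM, far below the other 5 points.

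The study asked whether MommeD43 changes gene expression in this tissue, and no collagen gene passed the test. With limma over 14123 autosomal and X-linked genes, 0 of 33 collagens had an adjusted p under 0.05, where the background was 0% of all genes tested, and 0.9995 was the adjusted value of each collagen. Before adjustment, 0 collagens were under 0.05 in the limma fit across all genes, where 2.41% of all genes were, and the smallest unadjusted value was 0.0857, for Col14a1. Voom, another limma test, on the recovered reads also gave 0 at the adjusted threshold and 2 at the unadjusted one (Col6a3 and Col14a1). In no collagen did the 3 MommeD43 libraries lie entirely above or below the 3 WT libraries, which was the case for 7.07% of all genes.

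The fitted change was above 0 for 23 of 33 collagens, while 50.9% of all genes had a value above 0. By class, it was above 0 for 9 of 10 fibrillar, 4 of 6 basement membrane and 10 of 17 other chains. The median log2 fold change was 0.14 for fibrillar, 0.03 for basement membrane and 0.04 for other chains, and 0.002 over all genes tested. Without WT replicate 1, 6 of 10 fibrillar chains were above 0 and their median was 0.03, and without MommeD43 replicate 2 the numbers were 8 of 10 and 0.03, so that the size of the median rested on these libraries. For the other chains, the median was -0.08 and 6 of 17 were above 0 without MommeD43 replicate 3. The spread between replicates was wider for collagens than for most genes, with a median pooled SD of 0.29 on the log2 scale (0.27 for fibrillar, 0.15 for basement membrane and 0.39 for other chains) against 0.14 over all genes tested; many of the other chains rest on few reads.

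**Figure D2:**
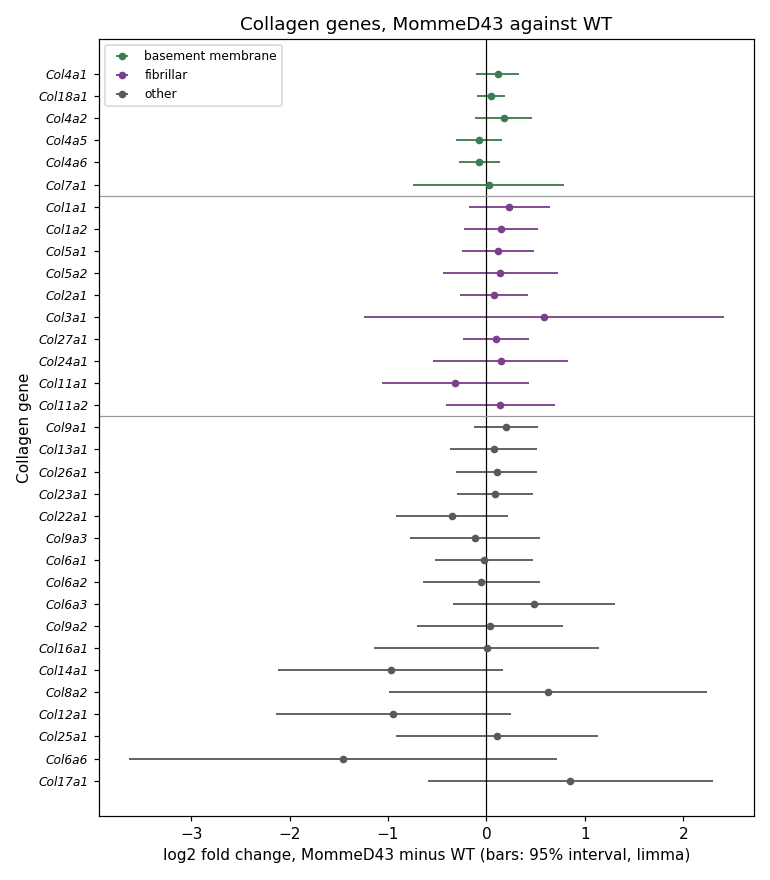
Log2 fold change of MommeD43 against WT for each tested collagen gene, with points for the limma estimate and bars for its 95% interval, coloured by class and ordered by mean level within a class. Every interval spans 0; they are narrow for Col18a1 (-0.10 to 0.19) and wide for Col3a1 (-1.25 to 2.41) and Col6a6 (-3.64 to 0.71).

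Type I collagen, the main fibril protein of skin and bone, was the leading fibrillar type. Col1a1 (ENSMUSG00000001506) lies on the plus strand of chromosome 11 in GRCm38.p6, from 94936224 to 94953042, and encodes the more abundant chain of its trimer. It was at 6.63, 10.6 and 9.19 RPKM in WT replicates 1, 2 and 3, and at 9.61, 12.2 and 8.94 RPKM in MommeD43 replicates 1, 2 and 3. The groups overlapped, WT replicate 1 was the lowest library and MommeD43 replicate 2 the highest. The means were 8.80 ± 1.998 RPKM in WT and 10.2 ± 1.70 RPKM in MommeD43 (SD, n = 3 each), a log2 fold change of 0.23 ± 0.18 (SE, limma, adjusted p = 0.9995) that was 0.04 without WT replicate 1. Col1a2 (ENSMUSG00000029661; chromosome 6, 4504814 to 4541544), its partner chain, showed the same order of libraries at both ends. It was at 4.27, 6.31 and 5.44 RPKM in WT and at 5.72, 6.83 and 5.07 RPKM in MommeD43. Its log2 fold change of 0.14 ± 0.16 (SE) became -0.01 without WT replicate 1.

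Type V collagen starts and limits the growth of type I fibrils. Its chains Col5a1 and Col5a2 (means of 5.24 and 5.23 RPKM) were near Col1a2 (5.61) and below Col1a1 (9.52). Col5a1 (ENSMUSG00000026837; chromosome 2, 27886425 to 28039514) was at 4.31, 6.22 and 4.59 RPKM in WT replicates and at 5.19, 6.28 and 4.84 RPKM in MommeD43 replicates. Col5a2 (ENSMUSG00000026042; chromosome 1, 45374321 to 45503282, minus strand) was at 3.31, 6.93 and 4.96 RPKM in WT and at 5.27, 6.48 and 4.45 RPKM in MommeD43. For both genes WT replicate 1 was the lowest library and the groups overlapped. The log2 fold changes were 0.12 ± 0.16 for Col5a1 and 0.14 ± 0.26 for Col5a2 (SE), and without WT replicate 1 they were 0.0166 and -0.13.

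Col3a1 varied more between embryos than any other well-covered collagen. It encodes the single chain of type III collagen, which forms fine fibrils with type I in vessels and skin, and it lies beside Col5a2 on chromosome 1 (ENSMUSG00000026043, 45311538 to 45349706, plus strand). The genes point toward each other with 24614 bases between their ends and no protein-coding gene in between. Col3a1 was at 0.342, 3.52 and 2.51 RPKM in WT replicates 1, 2 and 3, from 123, 817 and 409 reads. It was at 2.08, 3.53 and 1.38 RPKM in MommeD43, from 224, 1638 and 177 reads. The exact 95% interval (Clopper-Pearson) of WT replicate 1 was 0.284 to 0.408 RPKM, and the lowest bound of the other libraries was 1.18 RPKM, so that counting error does not cover the gap. The highest library was 10.3 times the lowest, and the pooled SD of 1.37 on the log2 scale lay at percentile 99.0 of all genes tested. The log2 fold change of 0.58 ± 0.80 (SE, adjusted p = 0.9995, limma) was -0.46 when WT replicate 1 was left out and 1.22 when WT replicate 2 was. In the same library the summed markers of blood and of endothelium were at their lowest, as given above, and their part in the level of Col3a1 was not tested.

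The sequences before the starts of Col3a1 and Col5a1 are shown because these fibrillar genes differed in their spread between embryos (the highest library was 10.3 times the lowest for Col3a1 and 1.46 times for Col5a1) and because no annotated exon overlaps either window. Both are the 250 bases upstream of the RefSeq start in GRCm38.p6, on the plus strand and from 5′ to 3′, with capitals for matches on either strand to TATAAA (the core of the TATA box), to CCAAT (the CCAAT box) and to GGGCGG (the core of the GC box, which Sp1 binds).
Col3a1, chr1:45311288-45311537: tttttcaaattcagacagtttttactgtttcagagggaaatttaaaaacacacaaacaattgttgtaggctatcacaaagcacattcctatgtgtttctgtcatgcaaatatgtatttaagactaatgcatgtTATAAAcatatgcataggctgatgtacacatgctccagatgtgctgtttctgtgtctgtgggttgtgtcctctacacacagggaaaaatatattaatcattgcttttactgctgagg
Col5a1, chr2:27886175-27886424: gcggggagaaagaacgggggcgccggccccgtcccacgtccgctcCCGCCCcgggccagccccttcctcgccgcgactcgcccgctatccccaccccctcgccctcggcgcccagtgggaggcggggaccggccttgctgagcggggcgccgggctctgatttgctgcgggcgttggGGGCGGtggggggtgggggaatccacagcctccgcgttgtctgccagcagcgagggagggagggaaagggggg
The Col3a1 window held 1 match to TATAAA, beginning 117 bases before the start, and none to the other motifs. The Col5a1 window held 2 matches to GGGCGG, beginning 205 and 73 bases before the start. Of 38 RefSeq windows, which belong to 35 collagen genes, 22 (57.9%) held GGGCGG, 13 held CCAAT and 5 held TATAAA, while 32.7%, 33.8% and 12.4% of all 32851 windows of the same length did. Among other tested fibrillar genes with a window, Col11a2 held TATAAA and GGGCGG, and Col27a1 held GGGCGG. Col11a1 and Col1a2 held CCAAT and GGGCGG, and Col24a1 held no motif. The highest library was 1.335 times the lowest for Col11a2, 1.289 for Col27a1, 2.17 for Col11a1, 1.599 for Col1a2 and 2.255 for Col24a1. Any link between motifs and spread was not tested. Matches to such short motifs describe the letters and are not binding sites.

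Among the remaining fibrillar chains, Col2a1, the type II chain of cartilage and notochord sheath, was between 2.18 and 3.08 RPKM in all libraries, with a log2 fold change of 0.07 ± 0.15 (SE). Col27a1 and Col24a1, minor fibrillar chains of developing cartilage and bone, averaged 2.06 and 0.982 RPKM. Col11a1 and Col11a2, which form the core of cartilage fibrils, averaged 0.485 and 0.434 RPKM, and Col11a1 was the 1 fibrillar chain with a fitted value below 0 (log2 fold change -0.32). Over the class, WT replicate 1 was the lowest library for 5 of 10 chains and MommeD43 replicate 2 the highest for 6 of 10. MommeD43 replicate 2 was also the highest library for 4 of 7 markers of parietal endoderm and trophoblast. The 7 markers summed to between 30.4 and 35.3 RPKM in WT and between 34.6 and 49.8 RPKM in MommeD43. Lamb1 made up most of each sum, at 23.22 to 28.85 RPKM, and was highest in MommeD43 replicate 1. In MommeD43 replicate 2, Prl3d1 was at 14.3 RPKM, against at most 1.94 RPKM elsewhere, and Prl2c2 was at 4.228 RPKM. Thbd and Tpbpa, also highest there, were low, at 0.5565 and 0.109 RPKM. Plac1 was instead lowest in that library. The part of these markers in the fibrillar levels was not tested. Summed fibrillar RPKM was 26.1, 39.9 and 32.5 in WT replicates and 34.4, 42.3 and 31.3 in MommeD43 replicates. The female replicates 2 thus had the highest sum in both genotypes.

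**Figure D3:**
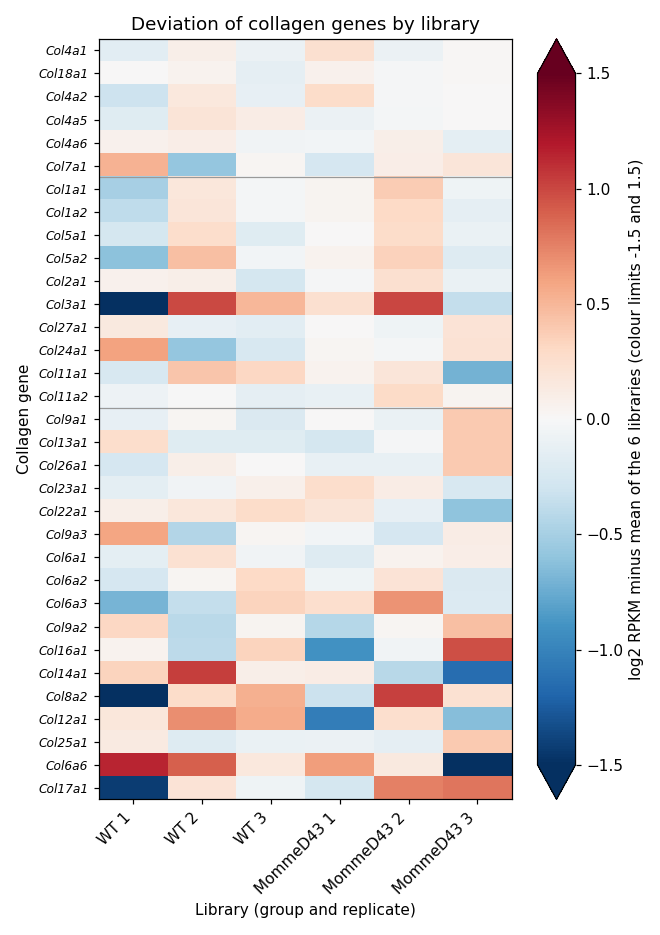
Deviation of each tested collagen gene in each library, as log2 RPKM minus its mean over the 6 libraries, from blue (below the mean) to red (above), with horizontal lines between basement membrane, fibrillar and other chains. In the column of WT replicate 1 the type I, III and V chains are blue, with Col3a1 at -2.37, while replicates 2 of both genotypes are red for the same genes.

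Type IV chains form the network of the basement membrane. Col4a1 (ENSMUSG00000031502; 11198423 to 11312826, minus strand) and Col4a2 (ENSMUSG00000031503; 11312805 to 11449287, plus strand) lie head to head on chromosome 8, and their annotated ends overlap by 22 bases. Col4a1 was at 38.0, 45.1 and 39.9 RPKM in WT and at 50.2, 39.9 and 42.9 RPKM in MommeD43. Col4a2 was at 16.99, 23.5 and 19.3 RPKM in WT and at 25.4, 20.7 and 21.2 RPKM in MommeD43. For both genes WT replicate 1 was lowest and MommeD43 replicate 1 highest, and the groups overlapped. The log2 fold changes were 0.11 ± 0.10 for Col4a1 and 0.18 ± 0.13 for Col4a2 (SE, adjusted p = 0.9995, limma), without WT replicate 1 they were 0.0590 and 0.0673, and without MommeD43 replicate 1 they were 0.0188 and 0.0834. Col4a2 was 0.30 without WT replicate 2, with an unadjusted p of 0.0275 in limma. MommeD43 replicate 1 was also the highest library for 9 of 9 markers of visceral and yolk sac endoderm, such as Ttr and Afp. Their sums ranged from 145.9 (replicate 1) to 292.1 RPKM in WT and from 39.8 to 454.0 RPKM in MommeD43. The 8 endothelial markers had their lowest sum in WT replicate 1 (25.7 RPKM) and their highest in MommeD43 replicate 1 (47.2 RPKM). MommeD43 replicate 1 was highest for 4 of these 8, WT replicate 2 for 3 and MommeD43 replicate 2 for 1. The part of either marker list in the level of type IV collagen was not tested.

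The X-linked pair Col4a5 and Col4a6 is of interest because SMCHD1 acts on the inactive X chromosome. These genes (ENSMUSG00000031274 and ENSMUSG00000031273) lie head to head, from 141475385 to 141689234 on the plus strand and from 141165403 to 141474076 on the minus strand, with 1308 bases between them. Col4a5 was at 8.34, 10.8 and 10.2 RPKM in WT and at 8.91, 9.29 and 9.50 RPKM in MommeD43. Col4a6 was at 7.01, 7.15 and 6.44 RPKM in WT and at 6.49, 7.09 and 6.02 RPKM in MommeD43. For Col4a5 the males were lowest in their own genotype, and for both genes the genotypes overlapped. Both had a log2 fold change of -0.07, with SE of 0.10 for Col4a5 and 0.09 for Col4a6. Without WT replicate 1, Col4a5 was at -0.19, with an unadjusted p of 0.0362 in limma, and without WT replicate 2 it was at 0.000802. In females alone the log2 fold changes were -0.16 and -0.05. The third type IV pair, Col4a3 and Col4a4, which replaces the common network in the kidney filter, lies 71 bases apart on chromosome 1 and had too few reads to be tested, with 52 and 10 reads in all libraries together.

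Col18a1 (ENSMUSG00000001435; chromosome 10, 77052178 to 77166548, minus strand), the source of endostatin, was the steadiest of the abundant collagens. It was at 41.2, 42.7 and 37.5 RPKM in WT and at 43.0, 40.5 and 41.4 RPKM in MommeD43. The highest library was 1.15 times the lowest, and the 95% interval of the change was a fold of 0.934 to 1.14. Col7a1, the anchoring fibril chain of skin, averaged 0.424 RPKM. Col15a1, a relative of Col18a1, had 31 reads in all.

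Among chains of other types, Col9a1 led. Type IX collagen sits on the surface of cartilage fibrils, and Col9a1 (ENSMUSG00000026147; chromosome 1, 24177610 to 24252684) was at 5.06, 5.62 and 4.72 RPKM in WT and at 5.49, 5.13 and 7.24 RPKM in MommeD43. Col13a1 (ENSMUSG00000058806), a membrane-spanning collagen, was at 4.73, 3.48 and 3.48 RPKM in WT and at 3.29, 3.90 and 5.19 RPKM in MommeD43. Col26a1 (ENSMUSG00000004415) was at 1.86, 2.35 and 2.23 RPKM in WT and at 2.04, 2.04 and 2.897 RPKM in MommeD43. MommeD43 replicate 3 was the highest library for all 3 genes, and the groups overlapped. Col23a1 (ENSMUSG00000063564), another membrane-spanning collagen, was lowest in that library instead, at 1.58 RPKM, with 1.69, 1.80 and 1.98 RPKM in WT and 2.24 and 2.02 RPKM in MommeD43 replicates 1 and 2. The log2 fold changes of these genes were 0.20 ± 0.14, 0.07 ± 0.19, 0.10 ± 0.18 and 0.08 ± 0.17 (SE) for Col9a1, Col13a1, Col26a1 and Col23a1. MommeD43 replicate 3 was the highest library for 7 of the 17 other chains and the lowest for 4. It was also the lowest library for 3 of 5 notochord and node markers, whose sums ranged from 10.7 to 17.4 RPKM in WT and from 7.55 to 15.5 RPKM in MommeD43. Noto was at 0.0954 RPKM there, against 3.44 RPKM or more elsewhere, and their part in these levels was not tested.

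Type VI collagen, a beaded filament of connective tissue, was low but detected through Col6a1, Col6a2 and Col6a3, which averaged 0.671, 0.486 and 0.464 RPKM. The fitted values farthest below 0 and farthest above 0 belonged to chains near the detection limit, and these were named after their values were seen. Above 0, Col17a1, a chain of the hemidesmosome, had a log2 fold change of 0.85 ± 0.63 (SE) on 74 reads in all libraries together. Without WT replicate 1 it was 0.35. Col8a2, a chain of corneal and vascular membranes, had 0.62 ± 0.70 (SE) on 84 reads, and -0.0918 without WT replicate 1. Col6a6 had 48, 26 and 11 reads in WT and 10, 31 and 1 in MommeD43, and a log2 fold change of -1.46 ± 0.95 (SE) that was -0.35 without MommeD43 replicate 3. Col14a1 and Col12a1, which bind the surface of fibrils, had log2 fold changes of -0.97 ± 0.50 and -0.95 ± 0.52 (SE, adjusted p = 0.9995, limma). Col14a1 was at 0.152, 0.247 and 0.129 RPKM in WT and at 0.130, 0.0904 and 0.0545 RPKM in MommeD43, so that only WT replicate 3 and MommeD43 replicate 1 were out of order. For Col12a1 the values were 0.0968, 0.139 and 0.126 RPKM in WT and 0.0419, 0.103 and 0.0552 RPKM in MommeD43, with the overlap between WT replicate 1 and MommeD43 replicate 2. Col14a1 and Col12a1 rested on 140 and 228 reads in all libraries together. MommeD43 replicate 3 held 5 for Col14a1, and MommeD43 replicate 1 held 7 for Col12a1. With 1 library left out, the values ranged from -1.27 to -0.64 for Col14a1 and from -1.31 to -0.66 for Col12a1. As both genes were picked for values far below 0, an unchanged sign is no support for a change. With a pseudocount of 1 RPKM the values were -0.11 for Col14a1 and -0.07 for Col12a1.

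Partner chains that build 1 trimer were then compared as ratios within each library, which removes differences in depth. The ratio of Col1a1 to Col1a2 was 1.55, 1.68 and 1.69 in WT and 1.68, 1.78 and 1.76 in MommeD43, with means of 1.64 ± 0.0752 and 1.74 ± 0.0542 (SD, n = 3 each, exact permutation p = 0.2, two-sided). The ratio of Col4a1 to Col4a2 was 2.235, 1.92 and 2.06 in WT and 1.98, 1.93 and 2.03 in MommeD43 (exact permutation p = 0.5). The ratios of these pairs ranged less between embryos than the levels of their genes. The highest Col1a1 library was 1.83 times the lowest. The highest ratio to Col1a2, 1.78, lay closer to the lowest, 1.55, which was that of WT replicate 1. The ratio of Col5a1 to Col5a2 ran from 0.898 to 1.304, about as widely as Col5a1 and less than Col5a2. The highest libraries of these genes were 1.455 and 2.094 times the lowest. The remaining pairs did not share this. The ratio of Col4a5 to Col4a6 ran from 1.191 to 1.585, more widely than either gene, whose highest libraries were 1.294 and 1.188 times the lowest. Ratios of Col6a1 to Col6a2, Col9a1 to Col9a3 and Col11a1 to Col11a2 also ranged more than either of their genes. Groups overlapped for each of the 7 pairs compared, and the adjusted p over them was 0.875 or 1 (exact permutation tests). With 3 libraries against 3 the smallest p possible is 0.1, so that no pair could have passed 0.05. Wider ranges were seen for Col9a1 to Col9a3 (4.61 to 10.4) and Col11a1 to Col11a2 (0.647 to 1.474). Col9a3 and Col11a2 had 434 and 459 reads in all libraries together. Between libraries Col11a1 varied more than Col11a2, with the highest 2.17 and 1.335 times the lowest.

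**Figure D4:**
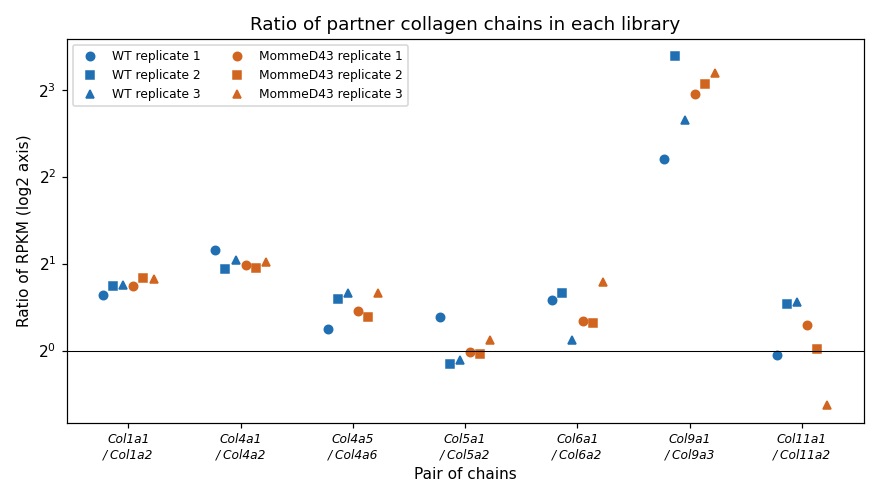
Ratio of RPKM of partner chains in each library, on a log2 axis, for 7 pairs (blue, WT; orange, MommeD43; circle, square and triangle, replicates 1, 2 and 3). Col1a1 to Col1a2 lies between 1.55 and 1.78 and Col4a1 to Col4a2 between 1.92 and 2.235, and the colours overlap for every pair.

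Each genotype had 1 male and 2 females, which allowed the change with genotype to be set against sex. No collagen differed at an adjusted p under 0.05 (limma, 0 of 33, smallest 0.222), where 0.248% of all genes did. Before adjustment, 5 collagens were under 0.05 (Col3a1, Col24a1, Col4a1, Col4a2 and Col13a1), while 11% of all genes were under it. For Col3a1 the log2 fold change was -0.43 in females and 2.61 between the males, the latter resting on the single low WT library. The male comparison has 1 embryo for each genotype, so sex, litter and the single embryo cannot be told apart.

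Finally, 82 genes that make, process, bind or degrade collagen were examined, of which 71 were tested. The adjusted threshold was passed by 0 of 71 (limma). Before adjustment, 4 genes were under 0.05, against 2.41% of all genes. A fitted value above 0 was found for 43 of 71, against 50.9% of all genes. Without WT replicate 1 the count above 0 was 35 of 71. With all libraries it was 3 of 8 for propeptide removal, 2 of 7 for direct regulators and 3 of 6 for receptors. It was 3 of 5 for cross-linking, 6 of 9 for basement membrane partners and 4 of 4 for fibril-binding partners. Of 22 genes for chain modification and folding, all were tested and 15 were above 0. P4hb, a subunit of prolyl 4-hydroxylase, and Serpinh1, the collagen chaperone HSP47, were the most abundant, at 288.9 to 342.1 RPKM and 231.1 to 312.8 RPKM, and were not separated by genotype.

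The 4 genes at the unadjusted threshold had different roles, and each had an adjusted p of 0.9995. Fkbp10, a chaperone of procollagen, was at 16.3, 17.6 and 15.9 RPKM in WT and at 18.6, 18.5 and 19.4 RPKM in MommeD43 (log2 fold change 0.18 ± 0.06, SE). P3h4, which takes part in lysine hydroxylation of collagen, was at 8.20, 8.34 and 8.70 RPKM in WT and at 6.79, 7.51 and 7.75 RPKM in MommeD43 (-0.20 ± 0.08). The genotypes did not overlap for either gene. Sparc, a collagen-binding protein of the basement membrane, was at 23.7, 31.3 and 31.2 RPKM in WT and at 37.4, 35.9 and 34.9 RPKM in MommeD43 (0.34 ± 0.11). Timp3, an inhibitor of matrix proteases, was at 1.18, 1.38 and 1.248 RPKM in WT and at 1.81, 1.66 and 1.45 RPKM in MommeD43 (0.37 ± 0.16). For Sparc and Timp3 too, every MommeD43 library lay above every WT library. Sparc was lowest in WT replicate 1, like the abundant fibrillar chains, and its log2 fold change was 0.21 without that library. In all, 7 of 71 genes had groups that did not overlap, against 7.07% of all genes.

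The remaining genes named from the lists are given by their mean level over the 6 libraries or by their range. Furin and Bmp1, proteases that act in propeptide removal, averaged 7.67 and 3.77 RPKM. Among cross-linking enzymes, Pxdn, the peroxidasin that links type IV collagen, averaged 34.5 RPKM, Loxl2 ranged from 5.97 RPKM in WT replicate 1 to 12.6 RPKM in WT replicate 2, and Lox, the classical enzyme of fibrillar collagen, was too low to be tested. Lamc1 and Nid2, partners in the basement membrane, averaged 48.2 and 41.4 RPKM, and the receptors Itgb1 and Mrc2 averaged 71.4 and 6.47 RPKM. Fn1, the fibronectin on which fibrils are laid down, averaged 149.6 RPKM and Bgn, a fibril-binding proteoglycan, 1.27 RPKM. Among genes of breakdown, Mmp2 averaged 27.3 RPKM and Ctsb 13.8 RPKM, and 7 of 10 genes tested in this list were above 0. Among direct regulators, Cbfb and Sp1 averaged 33.3 and 22.9 RPKM. Sox9, the activator of Col2a1, was between 1.74 and 2.54 RPKM, and Runx2, the bone factor, had too few reads to be tested.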

How the data were processed

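Libraries of poly(A) RNA were prepared with a stranded kit and sequenced as 75-base single-end reads. Per the study's methods and the submitters' processing notes, the authors trimmed reads with Trim Galore 0.4.4, mapped them with HISAT2 2.0.5 to GRCm38.p6 and quantified genes in SeqMonk, and they deposited log2 RPKM values per gene and library. Their group means were not used, and 0 further columns held samples outside the series.

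Whole reads were recovered from RPKM, the merged exon length in GENCODE M21 and the library total, with undetected genes at 0.9 read. Of 106492 values above that level, 98.5% were whole within 0.02. Genes were kept where 3 libraries or more reached the depth-scaled level of 10 reads in the median library (0.497 CPM) and all libraries together held 15 reads or more, which left 14123 genes. Of library totals, the deepest was 4.32 times the shallowest, and limits at low genes follow the shallowest. RPKM compares genes per length of exon.

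Groups came from the sample titles. MommeD43 was compared with WT by limma 3.58.1 (R 4.3.3) on log2 RPKM with a mean-variance trend, two-sided, with Benjamini-Hochberg adjustment over all genes tested. The sex comparison used the same tool with 2 residual degrees of freedom. Chain ratios were compared by exact permutation (Python 3.11.15, scipy 1.17.1). A pair with Col8a1 was planned and left out for lack of reads. The code was tested on simulated data. Alternatives covered scaling, filters, voom on recovered reads, a pseudocount of 0.1 or 1 RPKM, the trend, sample weights, sex, the replicate number, females alone, autosomes alone and each library left out.

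Values in every library are given for the 4 collagens of highest mean RPKM in each class and for any with an unadjusted p under 0.05 or groups that do not overlap. In the pathway lists the 2 most abundant genes of each list and any with an unadjusted p under 0.05 are named. Further genes were named after their values were seen. The collagen genes, the lists and these rules were chosen with earlier results of these data known. Promoter windows were taken from RefSeq and matched 35 of 44 symbols; those of Col1a1, Col2a1, Col4a3, Col5a2, Col9a3, Col12a1, Col14a1, Col22a1 and Col26a1 were not used here.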

Additional observations from a re-analysis of the deposited data

How the results depend on the processing

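No collagen passed the adjusted threshold in any setting, whether scaling, filter, pseudocount, test, covariate or library changed. At an unadjusted p under 0.05, 2 collagens were counted with voom, 1 without the mean-variance trend (Col12a1), and 0 to 1 when a library was left out (Col4a5 without WT replicate 1, Col4a2 without WT replicate 2 and Col14a1 without MommeD43 replicate 1). For pathway genes this count was 7 in females alone and 2 to 7 with a library left out, and 11 genes of the whole table passed the adjusted threshold in females alone. The sex difference counted 3 collagens at an unadjusted p under 0.05 without the trend. The median log2 fold change of other chains was 0.14 in females alone and ranged from -0.0811 to 0.18 with a library left out, while those of fibrillar and basement membrane chains ranged from 0.03 to 0.22 and from 0.02 to 0.06. The cause of these shifts was not tested beyond the smaller number of libraries.

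Several log2 fold changes near 0 changed sign. In females alone they were -0.0341 for Col4a1, -0.0255 for Col4a2, -0.13 for Col5a2, -0.0772 for Col23a1 and -0.43 for Col3a1, and with sample weights Col26a1 was at -0.00865. With 1 library left out, ranges were -0.00731 to 0.27 for Col1a2, -0.13 to 0.40 for Col5a2, -0.46 to 1.22 for Col3a1, -0.19 to 0.000802 for Col4a5, -0.00915 to 0.0844 for Col18a1, -0.11 to 0.22 for Col13a1, -0.0406 to 0.14 for Col2a1, -0.0236 to 0.23 for Col23a1, -0.0918 to 1.05 for Col8a2 and -0.0647 to 0.19 for Col26a1. The log2 difference in ratio ranged from -0.13 to 0.0787 for Col4a5 to Col4a6, from -0.12 to 0.15 for Col5a1 to Col5a2 and from -0.14 to 0.13 for Col6a1 to Col6a2.

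The replicate numbers were not taken as pairs: the labels give a shared mother for the replicates 1 alone, and deviations of same-numbered libraries correlated at 0.016, 0.184 and -0.154. With the replicate number as a block, 0 collagens passed either threshold, 3 pathway genes had an unadjusted p under 0.05, and the medians were 0.14 for fibrillar, 0.03 for basement membrane and 0.04 for other chains. The depth of 10957916 reads in the shallowest library limits statements on chains below about 0.1 RPKM.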
